A study of Homo sapiens with 9 samples.

Results

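The 10 genes described here belong to transforming growth factor beta (TGF-beta) signalling and were measured in U87 cells that carry a mutant of isocitrate dehydrogenase 1 (IDH1). They are the 3 ligands TGFB1, TGFB2 and TGFB3, the 3 receptors TGFBR1, TGFBR2 and TGFBR3, the signal carrier SMAD3, and the 3 target genes SMAD7, SKIL and TGFBI. The members were chosen by gene name, and all 10 were found among the 58735 genes of the deposited count table and passed the filter on low counts that left 16874 genes for testing. U87 is an established human glioblastoma line. Per the labels, all cells stably overexpressed one of the following constructs, and each of the 3 groups had 3 RNA-sequencing libraries. The PCDH group carried the vector alone. The IDH1mt group carried the R132H mutant of IDH1, and the C269S group carried IDH1mt C269S, the same mutant with a cysteine changed to serine. The study asked how autopalmitoylation, by which the mutant enzyme attaches a lipid to itself, bears on transcript levels. No group expressing unmutated IDH1 was analysed here, so overexpression of IDH1 and the R132H change cannot be told apart. The number of selected lines per construct is not given in the sources used here, nor whether libraries of 1 group are separate cultures. The p-values therefore rest on a spread between libraries that may be only technical, and a selected line and its construct cannot be told apart.

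TGF-beta ligands are secreted in a latent form, held in the matrix, and released before they bind. Active ligand brings together the type II receptor TGFBR2 and the type I receptor TGFBR1, and TGFBR1 then phosphorylates SMAD2 and SMAD3, which enter the nucleus with SMAD4 and switch on target genes. SMAD7 and SKIL are induced by the pathway and restrain it, and TGFBI encodes a secreted matrix protein named for its induction by the ligand. In glioblastoma the pathway is known for its links with invasion, a mesenchymal state and immune suppression.

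Libraries held between 19108925 and 24803711 counts. IDH1, the gene carried by both constructs, was 110.6 ± 7.974 CPM (counts scaled to library depth, SD, n = 3) in PCDH, 677 ± 16.54 in IDH1mt and 738.7 ± 30.29 in C269S, a 6.12-fold and a 6.68-fold difference from PCDH. Counts do not separate the mutant from the cell's own transcript or C269S from IDH1mt. Among markers of the line, CD44 (269.5 to 339.3 FPKM as group means) and VIM (519.3 to 578.7 FPKM) were high. NES (11.31 to 12.92 FPKM) and OLIG2 (2.099 to 2.784 FPKM) were lower but present. The astroglial markers GFAP (0.2551 to 0.3294 FPKM) and S100B (0.09094 to 0.1435 FPKM) were near absent, as was SOX2 with at most 3 counts in a library. CD44 was called higher in both IDH1mt and C269S than in PCDH, and VIM lower in IDH1mt. The 8 markers of other cell types summed to 3.01 to 3.27 FPKM in PCDH libraries, 3.42 to 4.09 in IDH1mt and 3.03 to 3.99 in C269S. SYT1 (1.771 to 1.968 FPKM as group means, 206 to 339 counts in a library) and PECAM1 (0.7354 to 0.8769 FPKM, 102 to 175 counts) made up most of this sum and had more counts than GFAP (56 to 102). PTPRC was at 0 to 7 counts and CDH5 at 0 to 17, and none of the 6 that could be tested was called by edgeR. EPCAM, at 4 to 28 counts, was 1 of the 6 with an unadjusted p under 0.05, in IDH1mt against PCDH. The part of these markers, and of CD44 and VIM, in the differences between groups was not tested. In bulk RNA, fewer cells of a type and less RNA per cell cannot be told apart.

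The sequences upstream of the 5 members that were called in at least 1 comparison are shown because these are the members whose transcript levels moved. Each is taken from the RefSeq promoter table on GRCh38.p14, 5′ to 3′ on the gene's strand, and ends at or before the start site, with bases that lie in an annotated exon left off. The start used is the RefSeq start nearest to that of the principal transcript in GENCODE 29, which can lie inside the widest extent of the gene in the deposited table, since that extent takes in transcripts that start further upstream. The stretches of TGFBR1, TGFBR3 and SMAD3 lie inside the extent given with each of these genes in the results. Capitals mark CAGAC on either strand, the box that SMAD3 is known to bind. The TGFBR1 stretch is chr9:99104833-99105082 (plus strand), TGFBR2 is chr3:30606351-30606501 (plus), TGFBR3 is chr1:91886280-91886401 (minus), SMAD3 is chr15:67065352-67065601 (plus), and TGFBI is chr5:136028738-136028894 (plus).
TGFBR1: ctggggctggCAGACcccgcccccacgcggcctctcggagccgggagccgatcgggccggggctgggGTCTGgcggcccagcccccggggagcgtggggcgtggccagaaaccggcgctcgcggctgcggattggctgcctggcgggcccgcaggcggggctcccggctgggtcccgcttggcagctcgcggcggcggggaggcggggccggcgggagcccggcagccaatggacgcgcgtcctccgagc
TGFBR2: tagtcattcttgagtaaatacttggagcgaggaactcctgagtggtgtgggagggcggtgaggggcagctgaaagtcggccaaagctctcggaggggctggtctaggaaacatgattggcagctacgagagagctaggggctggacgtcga
TGFBR3: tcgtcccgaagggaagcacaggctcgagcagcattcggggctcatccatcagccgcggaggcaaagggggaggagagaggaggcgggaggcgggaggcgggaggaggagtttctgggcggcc
SMAD3: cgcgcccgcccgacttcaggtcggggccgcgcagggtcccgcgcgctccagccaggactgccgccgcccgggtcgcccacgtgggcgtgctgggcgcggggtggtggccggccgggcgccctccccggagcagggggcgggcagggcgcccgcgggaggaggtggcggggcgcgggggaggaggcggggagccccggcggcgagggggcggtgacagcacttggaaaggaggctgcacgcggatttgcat
TGFBI: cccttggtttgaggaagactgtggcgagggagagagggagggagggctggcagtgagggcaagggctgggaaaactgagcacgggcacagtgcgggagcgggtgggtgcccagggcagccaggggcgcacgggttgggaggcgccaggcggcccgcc
Of these 5, the TGFBR1 window held CAGAC on either strand, with boxes beginning 240 and 183 bases before the start. Windows of 250 bases before the start were searched for all 10 members on both strands. CAGAC was found in 4 of them, those of TGFB2, TGFBR1, SMAD7 and SKIL, against 36.9% of the 14871 promoters of this length in the table. The palindromic SMAD element GTCTAGAC, which joins AGAC to its reverse complement GTCT, was in 0 of 10 against 0.175% of promoters. The AP-1 motif TGANTCA was in 0 of 10 against 4.92%. The 3 motifs do not contain one another. The start used lay 899 bases from that of the principal transcript for TGFB2, 804 for TGFB3, 1087 for SMAD7 and 1908 for SKIL. For the other members this distance was at most 243 bases. The SMAD7 window lay wholly within annotated exons of the gene. Matches and misses in these windows thus describe the RefSeq start used, which need not be the main start in these cells. A match is a run of letters and not a measured site, and no match says only that the letters are not in this window. The window of TGFBR1 was 81.2% G and C and that of SMAD3 80.8%, while that of TGFBR2 was 58.4%.

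All 3 receptors and SMAD3 were higher in IDH1mt than in PCDH, and TGFBI was lower. Thus 5 of the 10 members were called by edgeR's quasi-likelihood test at an adjusted p under 0.05, 4 higher and 1 lower, where 14.1% of all tested genes were called in this comparison (7.18% higher and 6.9% lower). The 3 ligands, SMAD7 and SKIL were not called. In C269S, TGFBR1 and TGFBR2 were higher than in PCDH and TGFBI was lower, 3 of 10 members, where 1.42% of all genes were called (0.883% higher and 0.533% lower). Between C269S and IDH1mt 2 members were called, TGFBR1 and SMAD3, both lower in C269S, where 4.9% of all genes were called (2.29% higher and 2.61% lower). The median log2 difference over the 10 members was 0.196 for IDH1mt against PCDH, 0.084 for C269S against PCDH and -0.159 for C269S against IDH1mt, and over all genes tested it was -0.00773, -0.00839 and 0.000444. The comparisons against PCDH share the same 3 PCDH libraries, and every pair of comparisons shares a group, so their values are given side by side and not as separate evidence.

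**Figure D1:**
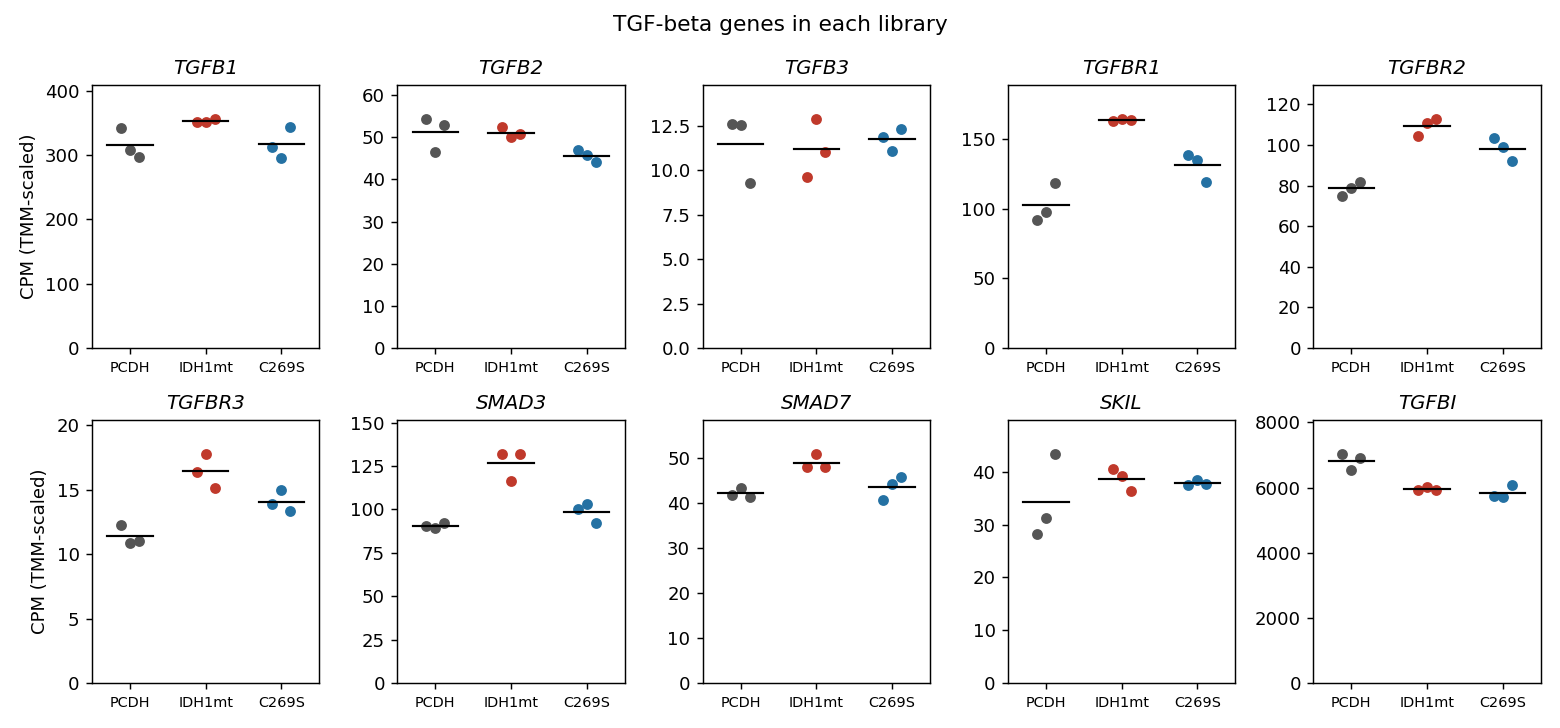
Level of each of the 10 genes in each of the 9 libraries, as TMM-scaled CPM on a linear axis from 0. Points are libraries and bars are group means of 3; the IDH1mt points of TGFBR1, TGFBR2, TGFBR3 and SMAD3 lie above all PCDH points, and those of TGFBI below them.

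Per length of gene, the ligand at the highest level was TGFB1, and the highest of all 10 genes was TGFBI. The scale for such levels between genes is the deposited FPKM (fragments per kilobase of the deposited gene length, scaled to library depth). That length, 7810 bases for TGFBI and 3238 for TGFB1, need not be that of the transcript made in these cells. The order of levels and the ratios and shares between genes depend on it. In PCDH, TGFBI stood at 865 ± 31.8 FPKM (SD, n = 3) and TGFB1 at 96.5 ± 6.85. TGFBR2 at 16.6 ± 0.777 and TGFBR1 at 14.9 ± 2.07 followed, and the values of these 2 genes overlapped between libraries. TGFB2 at 9.86 and SMAD3 at 9.84 also overlapped, ahead of SMAD7 at 8.31, SKIL at 4.37, TGFB3 at 2.31 and TGFBR3 at 1.3. The order shifted in IDH1mt, where SMAD3 at 13.8 FPKM stood apart from TGFB2 at 9.87, and TGFBR1 at 23.8 and TGFBR2 at 23.1 overlapped. TGFB2 and SMAD7 (9.69) overlapped there too, as did TGFB3 (2.26) and TGFBR3 (1.88). In C269S, TGFBR2 at 20.7 and TGFBR1 at 19 overlapped, SMAD3 was at 10.7, and TGFB2 at 8.81 overlapped with SMAD7 at 8.61.

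**Figure D2:**
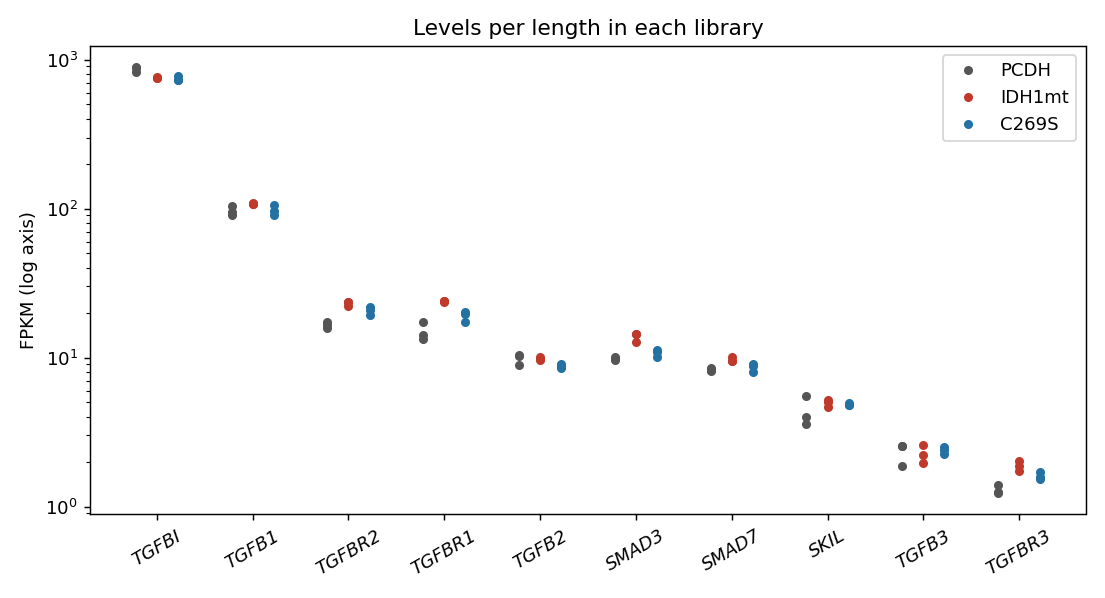
Deposited FPKM of the 10 genes in each library on a log axis, ordered by level in PCDH; points are libraries, coloured by group. The genes run from TGFBI, at 743 to 865 FPKM as group means, down to TGFBR3, at 1.3 to 1.88.

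None of the 3 ligands was called in any comparison by edgeR, DESeq2 or limma with all libraries. An unadjusted p under 0.05 in edgeR was reached by 1 ligand in IDH1mt against PCDH (TGFB1), by 1 in C269S against PCDH (TGFB2) and by both of these in C269S against IDH1mt. TGFB1 (chromosome 19, 41301587 to 41353911, minus strand, GRCh38) lay between 297 and 341.4 CPM in PCDH, 350.9 and 355.6 in IDH1mt, and 294.9 and 343.5 in C269S. The 3 IDH1mt libraries were above all others, and PCDH and C269S overlapped. TGFB1 was 0.16 ± 0.06 (SE) log2 units higher in IDH1mt than in PCDH (95% confidence interval, CI, 0.04 to 0.284, edgeR adjusted p = 0.069), and 0.15 lower in C269S than in IDH1mt (log2 difference -0.15, CI -0.276 to -0.032, edgeR adjusted p = 0.16). The first difference passed the threshold without PCDH replicate 1 (edgeR adjusted p = 0.021) or C269S replicate 3 (0.032), and the second without C269S replicate 3 (-0.218, 0.037). HNRNPUL1 overlaps TGFB1 on the opposite strand with up to 7826 counts in a library, 91.6% of the most counts of TGFB1, and the strand setting of the counting is not given in the sources used here, so the share of reads from each gene is uncertain.

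TGFB2 (chromosome 1, 218346235 to 218444619, plus strand) was 51.28 ± 4.116 CPM in PCDH, 51.1 ± 1.133 in IDH1mt and 45.67 ± 1.409 in C269S (SD, n = 3). The C269S libraries were below all IDH1mt libraries and overlapped with PCDH, whose lowest library had 46.58 CPM. The difference between C269S and PCDH was -0.17 on the log2 scale (CI -0.323 to -0.01, edgeR adjusted p = 0.38), and that between IDH1mt and PCDH was -0.004 (CI -0.159 to 0.151). TGFB3 (chromosome 14, 75958099 to 75982991, minus strand) overlapped in all 3 groups, at 11.47 ± 1.907, 11.19 ± 1.629 and 11.78 ± 0.6404 CPM in the same order. Its intervals were the widest of the 10 genes, from -0.315 to 0.246 for IDH1mt against PCDH. IFT43, a neighbour on the other strand with up to 896 counts, overlaps TGFB3, whose value is uncertain for the same reason as that of TGFB1.

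Of the summed FPKM of the 3 ligands, TGFB1 made up 88.8 ± 0.439% in PCDH, 89.9 ± 0.142% in IDH1mt and 89.6 ± 0.765% in C269S. TGFB2 made up 9.09%, 8.19% and 8.15%, and TGFB3 2.13%, 1.88% and 2.2%. The same ligand thus led in each group.

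The type I receptor TGFBR1 (chromosome 9, 99104038 to 99154192, plus strand), the kinase that phosphorylates SMAD2 and SMAD3, had the largest difference of the 10 genes between IDH1mt and PCDH. Its 3 PCDH libraries had 91.79, 97.89 and 118.7 CPM, the IDH1mt libraries 162.6, 164.2 and 164, and the C269S libraries 138.5, 135.3 and 119.5. The groups did not overlap, with IDH1mt highest and C269S between, although the highest PCDH library (replicate 3) and the lowest C269S library (replicate 3) lay close together. TGFBR1 was 1.59-fold higher in IDH1mt than in PCDH (log2 difference 0.67 ± 0.075 SE, edgeR adjusted p = 1.3e-07). It was 1.27-fold higher in C269S than in PCDH (0.35 ± 0.075, edgeR adjusted p = 0.011) and 1.25-fold lower in C269S than in IDH1mt (-0.32 ± 0.074, edgeR adjusted p = 0.0081). The call between C269S and PCDH was lost without PCDH replicate 1 (edgeR adjusted p = 0.099), PCDH replicate 2 (0.078), C269S replicate 1 (0.11) or C269S replicate 2 (0.076). That between C269S and IDH1mt was lost without C269S replicate 3 (log2 difference -0.259, edgeR adjusted p = 0.06).

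The type II receptor TGFBR2 (chromosome 3, 30606502 to 30694142, plus strand) binds the ligand first and recruits TGFBR1. Its levels were 74.93, 78.92 and 81.89 CPM in PCDH, 104.5, 110.9 and 112.6 in IDH1mt, and 103.4, 99.08 and 91.94 in C269S. Every library of both mutant groups was above every PCDH library, and the C269S libraries lay below those of IDH1mt without overlap, though the highest of them nearly met the lowest of IDH1mt. TGFBR2 was 1.39-fold higher in IDH1mt (log2 difference 0.475 ± 0.066, edgeR adjusted p = 3.4e-06) and 1.25-fold higher in C269S (0.32 ± 0.066, edgeR adjusted p = 0.0064) than in PCDH. The call in C269S was lost without PCDH replicate 1 (edgeR adjusted p = 0.057) or C269S replicate 1 (0.094). C269S and IDH1mt differed by -0.155 (CI -0.289 to -0.022, edgeR adjusted p = 0.21), which did not pass.

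TGFBR3 (betaglycan; chromosome 1, 91680343 to 91906335, minus strand) is a co-receptor that presents ligand, TGFB2 above all, to TGFBR2. Its libraries had 12.29, 10.83 and 11.05 CPM in PCDH, 16.41, 17.78 and 15.11 in IDH1mt, and 13.88, 14.99 and 13.37 in C269S. The 3 groups did not overlap, with C269S between the others. TGFBR3 was 1.45-fold higher in IDH1mt than in PCDH (log2 difference 0.533 ± 0.115, edgeR adjusted p = 0.0014). The difference of C269S from PCDH was 0.307 (CI 0.069 to 0.545, edgeR adjusted p = 0.23) and from IDH1mt -0.226 (CI -0.458 to 0.006, edgeR adjusted p = 0.32), neither past the threshold. So TGFBR3 in C269S was not told apart from either group.

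In FPKM, the ratio of TGFBR1 to TGFBR2 was 0.897 ± 0.0859 in PCDH, 1.03 ± 0.0361 in IDH1mt and 0.918 ± 0.0232 in C269S (SD, n = 3). The 3 IDH1mt ratios, from 1 to 1.07, were above the PCDH ratios, of which the highest was 0.996, by less than the spread within PCDH. No test was made of these ratios.

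SMAD3 (chromosome 15, 67063763 to 67195195, plus strand), the transcription factor that the receptors activate, was higher in IDH1mt and near the vector level in C269S. It had 90.27, 89.12 and 92.18 CPM in PCDH, 131.8, 116.7 and 132 in IDH1mt, and 100.2, 103.1 and 92.3 in C269S. All 3 IDH1mt libraries were above all others. The C269S libraries lay above those of PCDH without overlap, though the lowest of them (92.3) nearly met the highest of PCDH (92.18). SMAD3 was 1.4-fold higher in IDH1mt than in PCDH (log2 difference 0.486 ± 0.066, edgeR adjusted p = 2.2e-06) and 1.29-fold lower in C269S than in IDH1mt (-0.364 ± 0.066, edgeR adjusted p = 0.00042). C269S and PCDH differed by 0.122 (CI -0.013 to 0.257, edgeR adjusted p = 0.48). Both calls of SMAD3 held under all 20 other settings, with an edgeR, DESeq2 or limma adjusted p of at most 0.0016 and 0.02.

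**Figure D3:**
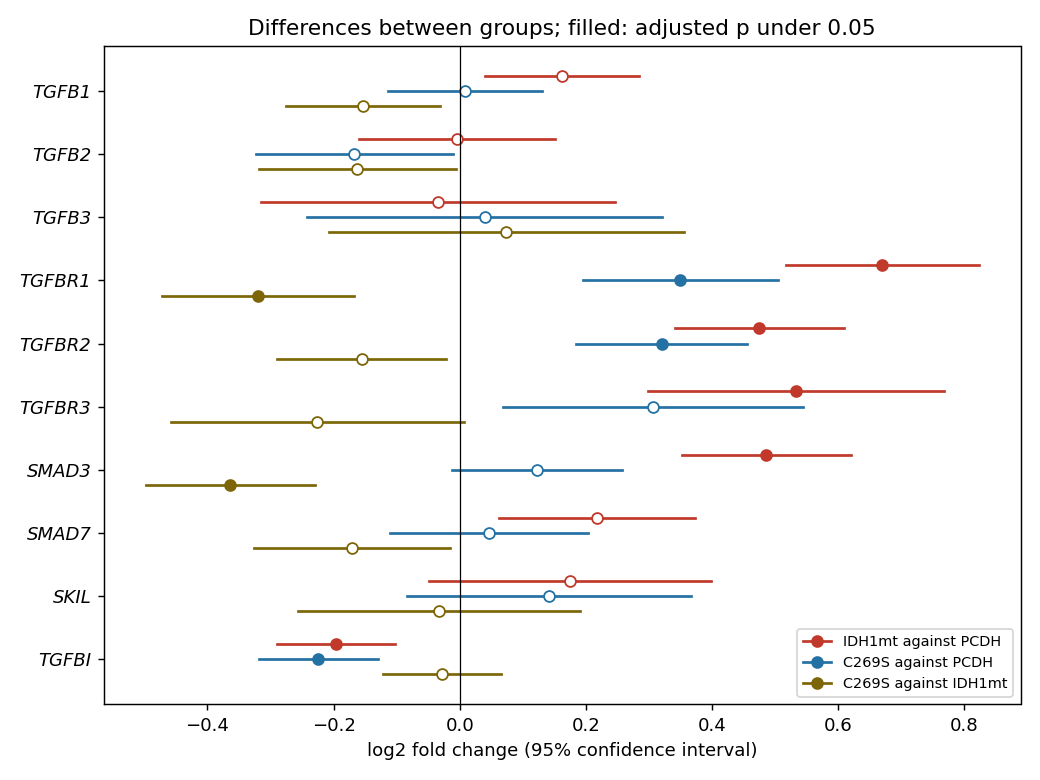
Log2 fold change of each of the 10 genes in the 3 comparisons, with 95% confidence intervals from edgeR's test over 3 libraries per group; filled points have an adjusted p under 0.05. TGFBR1 and SMAD3 have filled points on both sides of 0, above it for IDH1mt against PCDH and below it for C269S against IDH1mt, and TGFBI has filled points below 0 in both comparisons against PCDH.

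SMAD7 and SKIL, which the pathway induces and which act back on it, were not called in any comparison. SMAD7 (chromosome 18, 48919853 to 48952052, minus strand), which blocks and helps degrade the activated receptor, was 42.21 ± 1.024 CPM in PCDH, 49.06 ± 1.644 in IDH1mt and 43.59 ± 2.653 in C269S (SD, n = 3). The IDH1mt libraries were above all others, and PCDH and C269S overlapped. The difference between IDH1mt and PCDH was 0.217 on the log2 scale (CI 0.062 to 0.373, edgeR adjusted p = 0.053). It passed the threshold with DESeq2 (adjusted p = 0.032), with DESeq2 size factors in edgeR (0.047), under a filter of 1 CPM in 3 libraries (0.043) and without C269S replicate 3 (0.04), so SMAD7 lay at the edge of the call. In FPKM, the ratio of SMAD7 to SMAD3 was 0.844 ± 0.0341 in PCDH, 0.704 ± 0.0748 in IDH1mt and 0.804 ± 0.0847 in C269S.

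SKIL (SnoN; chromosome 3, 170357678 to 170396835, plus strand) is a co-repressor that binds SMAD proteins. It had 28.27, 31.28 and 43.38 CPM in PCDH, 40.57, 39.19 and 36.45 in IDH1mt, and 37.47, 38.5 and 37.72 in C269S. PCDH replicate 3 was above every other library, and the other 2 PCDH libraries were below every library of both mutant groups. With all libraries the differences from PCDH were 0.175 (CI -0.049 to 0.399, edgeR adjusted p = 0.33) in IDH1mt and 0.142 (CI -0.083 to 0.367, edgeR adjusted p = 0.67) in C269S. Without PCDH replicate 3 they were 0.379 (edgeR adjusted p = 0.0012) and 0.346 (0.012), so 1 library decided both.

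TGFBI (chromosome 5, 136028895 to 136063818, plus strand), among the most abundant transcripts of these cells, was lower in both mutant groups. It had 7029, 6525 and 6893 CPM in PCDH, 5911, 6024 and 5920 in IDH1mt, and 5724, 5698 and 6088 in C269S, and took 0.668% to 0.716% of all counts in PCDH libraries against 0.571% to 0.606% in the others. Every PCDH library was above every library of the mutant groups, which overlapped each other. TGFBI fell by 12.7% in IDH1mt (log2 difference -0.196 ± 0.046, edgeR adjusted p = 0.0033) and by 14.4% in C269S (-0.224 ± 0.046, edgeR adjusted p = 0.006). The call in C269S was lost without PCDH replicate 1 (edgeR adjusted p = 0.064), C269S replicate 1 (0.069) or C269S replicate 2 (0.077). C269S and IDH1mt differed by -0.028 (CI -0.122 to 0.066), an interval that leaves out a difference as large as that from PCDH. In FPKM, TGFBI stood at 8.99 ± 0.564 times TGFB1 in PCDH, 6.99 ± 0.101 times in IDH1mt and 7.65 ± 0.334 times in C269S.

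Library values of the 2 groups compared did not overlap for 7 of the 10 genes between IDH1mt and PCDH, where 29.2% of all genes tested did not, for 5 between C269S and PCDH, where 15.2% did not, and for 7 between C269S and IDH1mt, where 23.6% did not. For 9 of the 10 genes, all but TGFB3, the log2 difference between C269S and IDH1mt was below 0. Over all genes tested its median was 0.000444, so about as many genes lay below 0 as above it. The members were chosen with earlier results of these data known, and no test was made of this count. The difference between C269S and IDH1mt was small for SKIL (-0.033) and TGFBI (-0.028), and under other settings it rose to 0.002 and 0. For TGFBR2, TGFBR3, TGFB1, TGFB2, SMAD7, SKIL and TGFBI that difference did not pass the test, and for TGFBR1 and SMAD3 it did.

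Some genes shared the pattern of a called member across the 9 libraries, measured by Pearson's r of log2 CPM as a description, among the 11608 protein-coding genes whose mean log2 CPM was 1 or more. The 2 nearest to TGFBR1 were TFPI2 (r = 0.9945) and SEPT11 (0.9931), and TFPI2 had group means of 7410, 9870 and 8640 CPM in PCDH, IDH1mt and C269S. Nearest to TGFBR2 were C2CD2 (0.9852) and PAQR5 (0.981), and to TGFBR3 R3HCC1L (0.9798) and ITGA11 (0.9658), the latter at 14.7, 31.3 and 22 CPM. Nearest to SMAD3 were RGS10 (0.98), at 4.32, 7.78 and 4.98 CPM, and CRKL (0.9785), and to TGFBI PLBD2 (0.9719) and PACS1 (0.963). The libraries share groups and depth, and the highest of so many correlations over 9 points is high by choice.

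The rest of the pathway is described by lists of known genes. Of 16 genes that hold ligands latent or activate them, 2 were higher, 1 was lower and 13 were not called in IDH1mt against PCDH, with a median log2 difference of -0.115. The share called, 18.8%, was near the 14.1% of all genes tested. FBN1 (fibrillin, which anchors latent complexes in the matrix) was higher by 0.683 ± 0.067 (SE) and LRRC32 (GARP, which holds latent ligand at the cell surface) by 0.383, while LTBP3 (a latent TGF-beta binding protein) was at -0.207. LRRC32 was also higher in C269S than in PCDH (0.511). FBN1 was lower in C269S than in IDH1mt (-0.483), and THBS1 (thrombospondin, an activator of latent ligand) was higher (0.492). LTBP3 was not called without IDH1mt replicate 1 (-0.193, edgeR adjusted p = 0.051), nor LRRC32 in IDH1mt without IDH1mt replicate 2 (0.343, 0.069). With limma on log2 FPKM plus 1 or plus 0.1, the call of LRRC32 in C269S was lost (limma adjusted p = 0.069 and 0.061). The call of THBS1 was lost there too (limma adjusted p = 0.088 and 0.087). The count of lower genes between IDH1mt and PCDH ran from 0 without IDH1mt replicate 1 to 4 without PCDH replicate 1.

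Among 13 co-receptor and activin genes, 11 of them tested, 2 (18.2%, against 14.1% of all genes) were called higher by edgeR in IDH1mt and 0 lower (also 0 lower at an unadjusted p under 0.05, with DESeq2 and with limma). INHBA, the subunit of activin A, was higher by 0.745 in IDH1mt and by 0.521 in C269S than in PCDH, with 29.98 ± 3.636, 50.36 ± 4.032 and 43.09 ± 3.593 CPM in PCDH, IDH1mt and C269S. The INHBA call in C269S was lost with limma on log2 FPKM plus 1 or plus 0.1 (limma adjusted p = 0.08 and 0.073). ENG (endoglin, a co-receptor) was higher by 0.219, a call lost without PCDH replicate 1 or 2 or IDH1mt replicate 1 or 3, with an edgeR adjusted p between 0.09 and 0.12. Of 13 SMAD partners and members of the TAK1 branch, 2 were higher and 1 lower in IDH1mt (23.1%, against 14.1% of all genes), and 0 were called by edgeR in C269S against either group (unadjusted p under 0.05 for 2 genes against PCDH and 1 against IDH1mt, and 1 gene called by DESeq2 against PCDH). These were TAB2 (an adaptor of TAK1, 0.236), RNF111 (a ubiquitin ligase that removes SKIL and other repressors, 0.245) and HGS (an endosomal adaptor, -0.206). None of the 3 calls kept with every library left out in turn: TAB2 was lost without PCDH replicate 2 (edgeR adjusted p = 0.057), and for the list the count of higher genes ran from 0 without PCDH replicate 2 to 7 without PCDH replicate 3.

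Of 16 inhibitors of the pathway, 15 of them tested, 2 were higher in IDH1mt than in PCDH and 2 were lower, 26.7% against 14.1% of all genes. NEDD4L (a ubiquitin ligase that targets activated SMAD2 and SMAD3) was higher by 0.485 and PMEPA1 (a membrane protein that keeps SMADs from the receptor, itself induced by the pathway) by 0.304. TGIF1 (a co-repressor of SMADs) was at -0.5 and DCN (decorin, which binds the ligand) at -0.616. In C269S against IDH1mt, TGIF1 was higher (0.461) and NEDD4L lower (-0.253), 1 gene in each direction (13.3%, against 4.9% of all genes). This NEDD4L call was lost with limma on log2 FPKM plus 1 or plus 0.1 (limma adjusted p = 0.05 and 0.054). TGIF1 had 121.6 ± 6.258 CPM in PCDH, 86.02 ± 2.44 in IDH1mt and 118.4 ± 5.905 in C269S, so that IDH1mt stood alone. NEDD4L was also higher in C269S than in PCDH (0.232), a call lost without PCDH replicate 1 or 2, C269S replicate 1 or 2, or any of the 3 IDH1mt libraries (edgeR adjusted p 0.06 to 0.19).

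Of the 18 other genes known to be induced by TGF-beta, those that were called changed in both directions. Of the 14 that could be tested, 12 (85.7%) were called in IDH1mt against PCDH, where 14.1% of all genes were. Of these, 6 were higher and 6 lower, and the median over the 14 was -0.02 against -0.00773 over all genes. Like the members and the other lists, this list was chosen with earlier results of these data known, which can raise the share called. IL11 (a cytokine) was the most raised, at 434.6 ± 30.22 CPM in PCDH, 897.4 ± 38.39 in IDH1mt and 752.8 ± 37.8 in C269S, log2 differences of 1.046 and 0.792 from PCDH. BHLHE40 (a transcriptional repressor) was higher by 0.785 in IDH1mt and by 0.262 in C269S. HMGA2 (a chromatin protein) was at -0.57 in IDH1mt and -0.29 in C269S, and CDKN1A (p21, a cell cycle inhibitor) at -0.518 in IDH1mt, where its level was 265.3 ± 2.228 CPM against 380 ± 13.04 in PCDH and 375 ± 13.29 in C269S. The HMGA2 call in C269S was lost with limma on log2 FPKM plus 1 or plus 0.1 (limma adjusted p = 0.056 in each). TGM2 (a crosslinking enzyme) was higher in both mutant groups, by 0.377 and 0.416.

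CTGF, a matricellular growth factor often read as a reporter of the pathway, was singled out after its values were seen. It had 37.41 ± 3.128 CPM in PCDH, 20.29 ± 2.072 in IDH1mt and 34.98 ± 2.986 in C269S, a log2 difference of -0.888 between IDH1mt and PCDH and of 0.791 between C269S and IDH1mt. Its level in C269S was closer to PCDH than to IDH1mt, and the difference from PCDH did not pass the test. In C269S against PCDH 4 of the 14 genes were higher and 2 lower (42.9%, against 1.42% of all genes). In C269S against IDH1mt 5 were higher and 3 lower (57.1%, against 4.9% of all genes). IL11 was among those lower in C269S than in IDH1mt (-0.253), a call lost without IDH1mt replicate 3 (edgeR adjusted p = 0.052) or C269S replicate 2 (0.057).

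Of the matrix and contractile targets that were called in IDH1mt, most were lower. Of 12 tested, 1 was higher and 5 were lower in IDH1mt (50%, against 14.1% of all genes), with a median of -0.357. COL1A2 and COL1A1, the chains of type I collagen, were at -0.799 and -0.551 in IDH1mt and at -0.47 and -0.366 in C269S, with COL1A2 at 2218 ± 56.42 CPM in PCDH, 1274 ± 41.49 in IDH1mt and 1601 ± 68.77 in C269S. TNC (tenascin C) was at -0.463 and TPM1 (tropomyosin) at -0.282 in IDH1mt. FN1 (fibronectin) went the other way, higher by 0.222 in IDH1mt and 0.45 in C269S. TGFBI, also a matrix gene, fell in the same comparisons as both collagen chains, while fibronectin rose. In C269S against IDH1mt 4 matrix genes were higher by edgeR (33.3%, against 4.9% of all genes), among them COL1A2 (0.33) and TNC (0.382). In the same comparison 0 were lower by edgeR (also 0 lower with DESeq2, with limma and at an unadjusted p under 0.05). The count of 5 lower genes became 8 without PCDH replicate 3, and that of 4 higher genes became 2 without IDH1mt replicate 1, where COL1A1 (0.159, edgeR adjusted p = 0.21) and FN1 (0.174, 0.092) were no longer called.

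Of the 7 genes of the epithelial to mesenchymal transition, CDH1 was too low to test, and 2 of the other 6 were called in IDH1mt (33.3%, against 14.1% of all genes). TWIST1 was at -0.732 in IDH1mt and -0.425 in C269S, and SNAI1, at 2.968 ± 0.8118 CPM in PCDH and 4.949 ± 0.3568 in IDH1mt, was higher by 0.733 ± 0.213 (SE). SNAI2 was lower in C269S than in IDH1mt (-0.266). These 3 genes are transcription factors that repress epithelial genes or drive the transition. The SNAI1 call was lost without PCDH replicate 1 (edgeR adjusted p = 0.085), PCDH replicate 2 (0.1) or IDH1mt replicate 3 (0.076), and the TWIST1 call in C269S without PCDH replicate 2 (-0.338, 0.12), C269S replicate 1 (-0.364, 0.12) or C269S replicate 2 (-0.405, 0.07). The SNAI2 call was lost without IDH1mt replicate 1 or 3 or C269S replicate 2 or 3 (edgeR adjusted p 0.055 to 0.11).

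**Figure D4:**
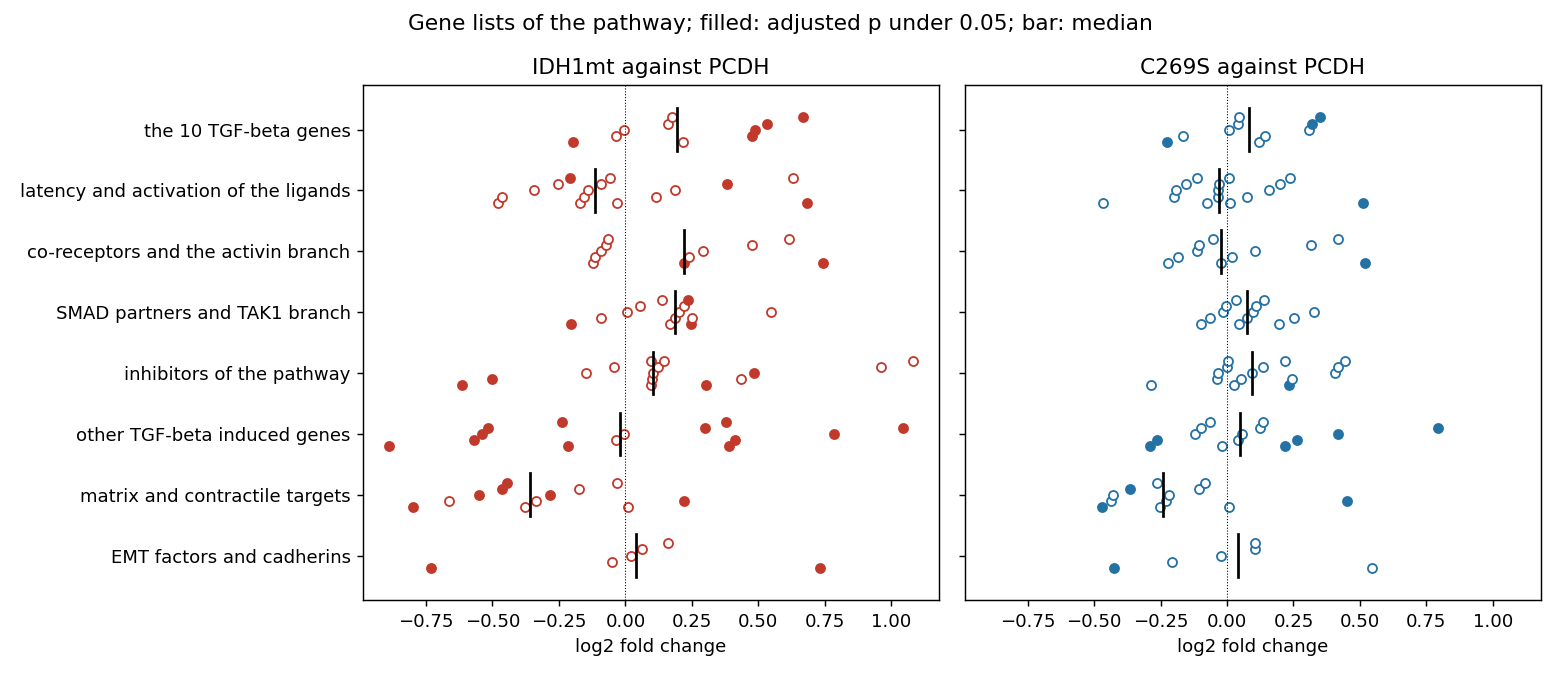
Log2 fold change of every tested gene of the 10 members and 7 lists of the pathway, for IDH1mt and C269S against the same PCDH libraries; each point is a gene, filled where edgeR's adjusted p is under 0.05, and bars are medians. The median of the matrix and contractile targets in IDH1mt is -0.357 and that of the 10 members 0.196.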

How the data were processed

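Bulk RNA was sequenced from 9 U87 libraries, 3 per group. The authors deposited whole-number read counts per gene, made with HISAT2 2.0.5 and featureCounts 1.5.0-p3 on GRCh38, per the submitters' processing notes, and a table of FPKM values for the same libraries. Column names (Control for PCDH, mt for IDH1mt, CS for C269S) gave the groups. The deposited gene lengths were used for no test.

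Genes were kept with filterByExpr, libraries scaled by TMM (factors 0.9775 to 1.025), and 1 fit over 9 libraries tested with edgeR 4.0.16's robust quasi-likelihood F test (R 4.3.3), with Benjamini-Hochberg adjustment over 16874 genes and calls at an adjusted p under 0.05. The SE is the absolute log2 difference divided by the square root of F. CPM values are TMM-scaled. Simulated data were used to test the fit. Alternatives, among them DESeq2 1.42.0 and limma 3.58.1 (voom, or log2 FPKM plus 1 or 0.1), are given in the closing section. With 3 libraries against 3, an exact permutation test could not go below 0.1 and was not used.

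The members and lists were chosen with earlier results of these data known. Named were the 10 members, IDH1, and of each list up to 4 genes with the lowest adjusted p among those called in IDH1mt against PCDH and up to 2 in each other comparison, CTGF being an exception chosen after its values were seen. A listed gene may enter a count without being reported here by name. Replicates did not repeat each other within sampling noise (chi-square per degree of freedom 3.56 to 9.992, the 2 highest with PCDH replicate 3).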

Additional observations from a re-analysis of the deposited data

Results flagged for a closer look

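The difference between the 2 mutant groups was tested directly, and 2 of the 10 genes passed. TGFBR1 was lower in C269S than in IDH1mt, with a log2 difference of -0.32 (edgeR adjusted p = 0.0081) and all 3 C269S libraries below all 3 of IDH1mt. This call was lost without C269S replicate 3 (-0.259, edgeR adjusted p = 0.06) and with limma on FPKM plus 1 or plus 0.1 (limma adjusted p up to 0.11). SMAD3 was lower too, with a difference of -0.36 (edgeR adjusted p = 0.00042) and no overlap between the groups.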

How the results depend on the processing

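The 5 member calls between IDH1mt and PCDH kept their direction and call under all 20 other settings, with adjusted p of at most 0.03 (edgeR, DESeq2 or limma). Members called were 5 to 7 when 1 library was left out, against 5 in all. For C269S against PCDH 3 members were called, 0 to 4 with 1 library left out (0 without PCDH replicate 1 or C269S replicate 1), and with limma on FPKM 0 (plus 1) or 1 (plus 0.1). For C269S against IDH1mt 2 were called (TGFBR1 and SMAD3), and 2 with any library left out, but without C269S replicate 3 these were SMAD3 and TGFB1 (-0.218, edgeR adjusted p = 0.037), TGFBR1 being lost (-0.259, 0.06). There was 1 with limma on FPKM plus 1 or plus 0.1.

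All genes called numbered 2375 between IDH1mt and PCDH (1582 with FPKM plus 0.1, 1310 at an adjusted p under 0.01, 1617 to 3048 with 1 library left out). Between C269S and PCDH 239 genes were called, 145 with the 6 libraries alone, 364 with DESeq2, 85 and 87 with FPKM plus 1 and plus 0.1, 100 at 0.01, and 103 to 903 with 1 left out, 903 being without PCDH replicate 3. Between C269S and IDH1mt 827 were called, 443 and 445 with FPKM, 413 at 0.01, and 450 to 1244 with 1 left out, 1244 without PCDH replicate 3. With library size alone as scaling, 35.2% of called genes were higher in IDH1mt than in PCDH against 51% with TMM, 52.9% against 62.3% in C269S, and 60.1% against 46.8% between C269S and IDH1mt.

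Uncalled differences near 0 changed sign. For TGFB2 in IDH1mt the value was 0.002 with DESeq2, with DESeq2 size factors and with the 6 libraries alone, 0.001 with voom, 0.003 with FPKM, 0 with the filter of 1 CPM, and -0.07 to 0.038 with 1 library left out. TGFB1 in C269S against PCDH was -0.012 with library size alone and -0.049 to 0.069 with 1 left out. TGFBI between C269S and IDH1mt was 0 with library size alone. With 1 left out, TGFB3 ran from -0.168 to 0.065 in IDH1mt, -0.093 to 0.113 in C269S and -0.025 to 0.193 between them, and SKIL between them from -0.073 to 0.002. The cause was not tested.

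Replicate numbers did not pair the samples (correlations of same-numbered libraries -0.087 to 0.056). A replicate block gave 1987, 172 and 605 genes called in the 3 comparisons and left the members called at 5, 3 and 2.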
